A study of Mus musculus with 2 samples.

Results

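The genes described are p53 (Trp53), its inhibitors Mdm2 and Mdm4, and 7 known p53 target genes, read in Drosha knockout mouse embryonic stem (ES) cells. They are 10 of the 43629 genes counted, taken by their symbols in the gene annotation and not by their values. The study sequenced poly-A RNA of these cells, which its title says were made by a paired CRISPR/Cas9 approach. They are ES cells of 129/Ola strain background from the blastocyst, at passage 7, grown in serum with the cytokine LIF and given no treatment. All samples carry the Drosha knockout, so the data hold 1 genotype in 2 libraries, called B and A after their titles, and no control cells were analysed here. The titles number the cells 2 (B) and 1 (A), while the source names are the same. Whether these are separate clones or cultures is therefore not settled, and a difference between them may be technical.

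p53 is a transcription factor that switches on genes for cell cycle arrest, repair and cell death after DNA damage and other stress. Mdm2 and its relative Mdm4 bind the activation domain of p53 and hold it in check. Mdm2 also marks p53 for degradation and is itself a p53 target, which closes a feedback loop. Because p53 is controlled largely through its protein, the level of its RNA is no measure of its activity. Drosha cuts primary microRNA transcripts in the nucleus, and p53 and microRNAs act on each other at several points.

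Library B held 42322129 reads in genes and library A 29264632. A set limit of 3 reads, about the one-sided 95% upper limit of a count of 0, stood at 0.0711 CPM (reads per 1000000 after scaling) in B. In A it stood at 0.102 CPM. The exact Poisson intervals given below are two-sided, and for a count of 0 they reach 0.0874 CPM in B and 0.126 in A. Intervals and such limits cover counting error only. All 8 ES cell markers reached 1 CPM in both libraries, with Pou5f1 at 1166 CPM in B and 1191 in A. Of 8 markers of differentiated lineages 3 did (Eomes, Pax6 and Sox1), and of 10 markers of feeder fibroblasts 4 did (Col1a1, Fbln1, Pdgfrb and Thy1). Levels of different genes are compared in TPM, which divides reads by the length of the merged exons of a gene, and levels of 1 gene between libraries in CPM.

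All 10 genes were expressed, and each was above 20 CPM in both libraries. Together they took 0.194% of the reads in B and 0.195% in A. Trp53 led in TPM, followed by its targets Ccng1, Sesn2 and Trp53inp1. The inhibitors Mdm2 and Mdm4 lay in the middle, next to Phlda3 and Zmat3, and Perp and Eda2r were lowest. The median of the 10 was 68.4 TPM in B and 68.2 in A. Over all genes with a read, it was 2.91 TPM in B and 2.97 in A.

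Trp53 (ENSMUSG00000059552, GRCm38 chromosome 11, 69580359 to 69591873, plus strand) had 16800 reads in B and 11954 in A. That is 398 CPM in B (95% exact Poisson interval 392 to 404) and 407 in A (400.2 to 415). Per length this came to 261 TPM in B and 270.5 in A, a mean of 266 ± 6.77 (SD, n = 2). It ranked at position 370 of 17124 protein-coding genes with a read. The protein-coding genes closest to it in level over both libraries were Eif4g1 (262 TPM in B, 270.3 in A), Lrrc59 (263 and 268) and Mars (259 and 267). Closeness was the distance in log2(TPM + 0.1) over 2 libraries and says nothing beyond the level. The processed pseudogene Trp53-ps, which resembles the mRNA, had 7 reads in B and 3 in A. No exon of the 10 genes overlaps an exon of another annotated gene. A pseudogene, Gm29257 (61 reads in B, 51 in A), lies within the span of Mdm4, and Gm12981 (17 reads in each) within that of Sesn2. Gm12981 is annotated on the same strand as Sesn2, though its biotype in the annotation is antisense.

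Mdm2 (ENSMUSG00000020184, chromosome 10, 117688875 to 117710758, minus strand), the ubiquitin ligase of p53, had 5643 reads in B and 3867 in A, or 134 and 132 CPM. Its level was 69.7 TPM in B and 69.6 in A. Mdm4 (ENSMUSG00000054387, chromosome 1, 132959484 to 133030561, minus strand), which binds p53 but is a weak ligase alone, had 15786 reads in B and 10791 in A, or 374 and 368 CPM. Per length it was at 67.0 TPM in B and 66.7 in A. Trp53 was thus 3.74 times Mdm2 in B and 3.88 times in A, and 3.89 and 4.05 times Mdm4. With longest transcripts as lengths, Trp53 was 2.86 times Mdm2 in B and 2.97 times in A, and 2.31 and 2.403 times Mdm4.

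The place of Mdm4 depends on its length. Its 14 annotated transcripts merge into 14798 bases of exons, while the longest single transcript has 7105. With the longest transcript as the length, Mdm4 had 113 TPM in both libraries, against 91.4 TPM for Mdm2 in B and 91.1 in A. It then ranked above Trp53inp1. The pseudogene Mdm4-ps had 13 reads in B and 11 in A.

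Ccng1, or cyclin G1, which recruits a phosphatase to Mdm2, was the highest target among the 10 genes at 189.7 TPM in B and 190.02 in A. It had 10603 reads in B and 7291 in A. Sesn2, a stress-induced inhibitor of the growth kinase mTORC1, had 142 TPM in B and 152 in A, from 7828 and 5786 reads. Trp53inp1, a nuclear stress protein that promotes p53-dependent cell death and acts in autophagy, had 112 TPM in B and 109.6 in A, from 11537 and 7756 reads. These 3 targets lay above both inhibitors in each library, except that Mdm4 passes Trp53inp1 with the longest transcript as length.

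The other targets among the 10 genes were lower. Phlda3, which competes with the kinase Akt for membrane lipids, had 53.1 TPM in B and 57.2 in A, from 1317 and 975 reads. Zmat3, an RNA-binding zinc finger protein, had 49.2 TPM in B and 49.7 in A, from 8957 and 6210 reads. Perp, a membrane protein of desmosomes known as a p53 effector in cell death, had 30.7 TPM in B and 29.8 in A, from 953 and 636 reads. Eda2r, a receptor of the TNF receptor family for ectodysplasin A2, had 28.8 TPM in B and 27.5 in A, from 2702 and 1768 reads. In CPM, which takes no account of length, Zmat3 (212 CPM in both) stood above Phlda3 (31.2 CPM in B, 33.2 in A). The merged exons of Zmat3 have 11435 bases and those of Phlda3 1559.

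Of the 9 neighbouring pairs in the TPM order, 7 were apart beyond their spread: their libraries did not overlap, nor did their 95% counting intervals in either library. Mdm2 (interval 67.9 to 71.6 TPM in B) and Mdm4 (66.0 to 68.1) were not. Perp (28.8 to 32.7 TPM in B) and Eda2r (27.7 to 29.9) were not either. The order was the same in B and in A. With longest transcripts as lengths, 3 of the 10 genes kept their rank, namely Trp53, Ccng1 and Sesn2 at the top. Zmat3 (mean 58.8 TPM) then stood above Phlda3 (48.6), and Eda2r (28.3) above Perp (24.5). The order of Phlda3 and Zmat3, counted above as apart, thus depends on the length used.

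**Figure D1:**
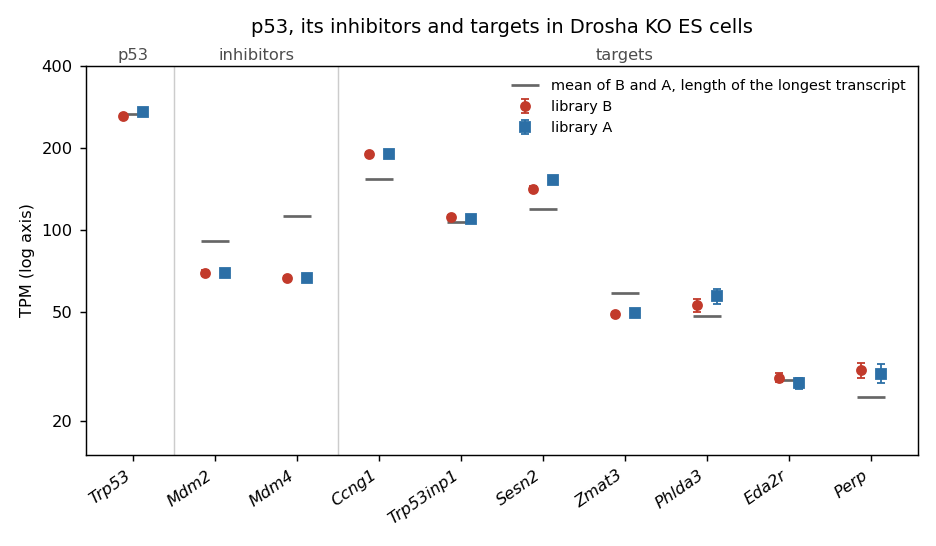
Level of each gene in TPM (log axis) in library B (circles) and library A (squares), with 95% exact Poisson intervals; grey bars show the mean of B and A when the longest transcript is taken as the length. Trp53 stood highest at 261 TPM in B and 270.5 in A, and Mdm4 is the gene whose level moves most with the choice of length.

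The start regions of the genes were searched for the p53 decamer, the repeat unit of the DNA element that p53 binds. RefSeq windows of 300 bases on GRCm38.p6, from 250 bases before to 50 after a start, were at hand for 7 of the 10 genes. The windows of Trp53, Mdm2 and Ccng1 held a match, and 8.36% of all 32851 windows did. The decamer consensus reads the same on both strands. The matches are shown in capitals, 5′ to 3′ on the strand of the gene, to let the windows of p53 and of its inhibitor be compared.
Trp53, chr11:69580274-69580303, plus strand, 75 bases before the start: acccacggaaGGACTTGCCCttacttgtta
Mdm2, chr10:117710925-117710954, minus strand, 186 bases before the start: agtcggatagGAACTTGCCTagcgaccatt
Ccng1, chr11:40755452-40755481, minus strand, 185 bases before the start: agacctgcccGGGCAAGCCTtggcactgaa
In the Trp53 window the decamer runs into a second CTTG 6 bases after the first. Such a pair of core tetramers (each CAAG or CATG or CTAG or CTTG, on either strand) overlaps the decamer and was found in the window of no other of these genes and in 7.22% of all windows. Outside the 10 genes, 1 of 2 windows of the p53 target Cdkn1a held such a pair, 48 bases before the start. It also held decamer matches 73 and 51 bases before the start. A match is a description of letters and not of binding. The windows of Mdm4, Sesn2, Phlda3 and Eda2r held no match. The elements by which p53 is known to drive Mdm2 lie in its first intron, outside the window.

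The rest of the pathway was read in the same way, by lists of 53 further genes grouped by role. Of these, 48 reached 1 CPM in both libraries. The p53 family was split. Trp73, a relative of p53, had 4.63 TPM in B and 4.66 in A, while Trp63, the relative needed in stratified epithelia, had 1 read in each library.

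All 7 factors that restrain p53 reached 1 CPM, with a median of 40.8 TPM in B and 38.5 in A. Usp7, a deubiquitinase that stabilises Mdm2 and can also act on p53, led with 209.9 TPM in B and 207 in A. The large ubiquitin ligase Huwe1 had 73.7 TPM in B and 74.7 in A, and Trim24 57.9 and 56.1. The phosphatase gene Ppm1d (24.3 TPM in B, 26.1 in A) and the ligase gene Cop1 (3.43 and 3.58) were the lowest. The 14 activating factors also all reached 1 CPM, with a median of 28.2 TPM in B and 28.04 in A. The checkpoint kinase Chek2 led with 74.5 TPM in B and 76.3 in A, ahead of the deubiquitinase Usp10 (57.1 and 61.2) and Chek1 (52.6 and 50.7). The kinase genes Hipk2 (5.60 TPM in B, 6.31 in A) and Dyrk2 (3.23 and 3.18) were the lowest.

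Of 26 other p53 targets 25 reached 1 CPM. In the arrest list, Gtse1, a microtubule protein that restrains p53, had 283 TPM in B and 296 in A, and Psrc1 158 and 165. Btg2 had 58.8 TPM in B and 57.6 in A. Cdkn1a, the inhibitor of cyclin-dependent kinases through which p53 halts the cell cycle, had 54.6 and 55.3. Plk2 was lowest with 22.1 TPM in B and 21.3 in A. In the death list, Bax, the protein that opens the mitochondrial outer membrane, had 370.1 TPM in B and 379 in A, above Trp53 itself. Ei24 had 133 TPM in B and 137 in A, and Siva1 72.04 and 73.5. Apaf1, the scaffold of the apoptosome, had 11.5 TPM in B and 11.7 in A. The death receptor Fas was the gene under 1 CPM, with 23 reads in B and 17 in A.

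The repair and metabolism list was led by the replication clamp Pcna, with 218 TPM in B and 210.5 in A, by Ddit4 (85.7 and 89.7) and by the sugar phosphatase Tigar (53.7 and 53.8). The translesion polymerase Polk (9.10 TPM in B, 9.76 in A) and the ribonucleotide reductase subunit Rrm2b (3.49 and 3.50) were lowest. The median over the 26 targets was 33.8 TPM. That these genes carried RNA does not show how much of it p53 made, since many can be transcribed without p53.

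**Figure D2:**
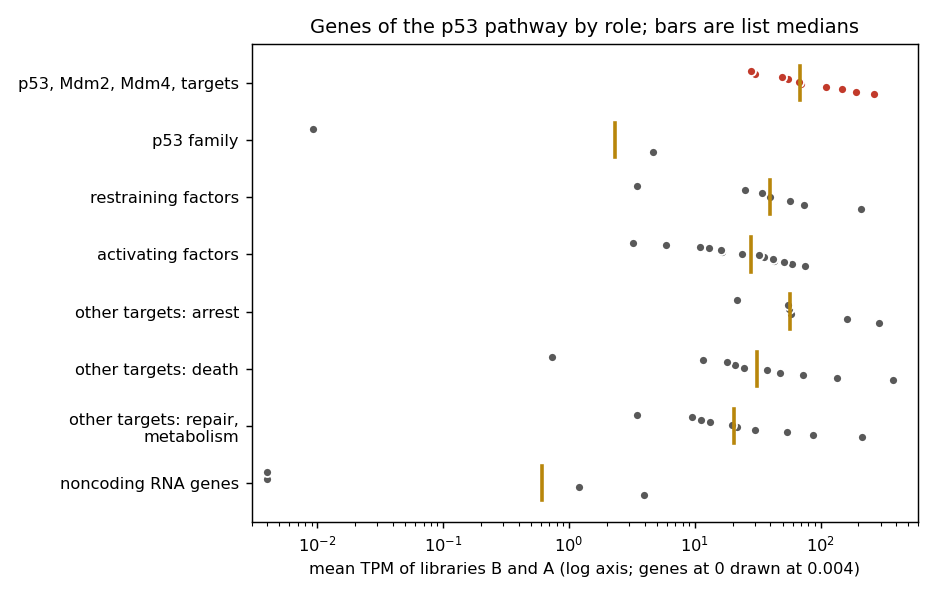
Mean TPM of libraries B and A (log axis) of each gene of the p53 pathway, 1 row per role, with a bar at the list median. Red points in the top row are the 10 genes described; Mir34b and Mir34c, at 0 reads, are drawn at the left edge next to Trp63, and Bax is the highest point.

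The p53-induced noncoding RNA genes were low. Trp53cor1, the long RNA transcribed upstream of Cdkn1a in mouse, had 58 reads in B (1.37 CPM) and 59 in A (2.01 CPM). The miR-34 genes are p53 targets whose hairpins Drosha would cut. Mir34a had 7 reads in B and 4 in A over its hairpin, and Mir34b and Mir34c had 0 in both. Reads on a hairpin come from longer transcripts that pass through it and do not measure the mature microRNA. Mature miR-34a and miR-34b have the same seed (bases 2 to 8), shown in capitals. Below them are 2 microRNAs of the miR-290 cluster, the most abundant family of mouse ES cells, which have the same seed as each other and need Drosha. All are RefSeq sequences on GRCm38.p6.
mmu-miR-34a-5p: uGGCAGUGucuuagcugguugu
mmu-miR-34b-5p: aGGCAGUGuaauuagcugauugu
mmu-miR-291a-3p: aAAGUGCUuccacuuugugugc
mmu-miR-294-3p: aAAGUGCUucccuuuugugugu

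The longest annotated 3′ UTR of each gene was searched for the complement of these seeds. The miR-290 cluster site, AGCACTT, occurred in 4 of the 10 genes, Ccng1, Trp53inp1, Sesn2 and Zmat3, and in 14.6% of 20951 UTRs of protein-coding genes. The miR-34 site, CACTGCC, occurred in 1 of the 10, Mdm4, and in 14.2% of all UTRs. The site of miR-125b, CTCAGGG, a microRNA reported to repress p53 in human and zebrafish, occurred in Ccng1, Trp53inp1 and Eda2r (3 of the 10) and not in Trp53, and in 13.0% of all UTRs. These shares are not like for like, since a longer UTR has more room for a match. The median UTR was 2000 bases in the 10 genes, from 565 in Trp53 to 6692 in Zmat3, against 955 over all UTRs. The sites of the miR-290 cluster and of miR-34, in capitals, are printed as examples of points at which microRNAs that need Drosha could pair with these mRNAs. Sites of microRNAs other than those named here were not searched.
Ccng1, miR-290 cluster: ttactgaaatAGCACTTctttaaatta
Trp53inp1, miR-290 cluster: tgaacagcacAGCACTTtgccaaaaaa
Sesn2, miR-290 cluster: accaccgacaAGCACTTtgcagagcaa
Zmat3, miR-290 cluster: gggtttccgaAGCACTTggaagttccc
Mdm4, miR-34: tggaattttgCACTGCCatagggaacg
Ccng1, Sesn2 and Trp53inp1, which hold such a site, were also the 3 highest targets among the 10 genes in TPM, and Zmat3 was not. Other p53 targets stood above Ccng1, namely Bax, Gtse1 and Pcna, at means of 375, 289 and 214 TPM. Their UTRs were not searched. With 1 genotype the levels do not show whether any site is used.

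The libraries were then compared gene by gene as B over A. With 1 library on each side there is no replicate check, and the p-values weigh reads of these libraries against counting error only. Of the 10 genes, 1 was called, Sesn2, lower in B, and 0 were called higher. Over all 18198 genes with at least 10 reads, 2.29% were called in either direction, 0.989% lower in B and 1.3% higher in B. A single call is not a result about the group. The size of the log2 ratio was at most 0.091 in the 10 genes, and their median was 0.018, against -0.00084 over all genes tested.

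Sesn2 had 185 CPM in B and 197 in A, a log2 ratio of -0.089 (95% counting interval -0.14 to -0.040; adjusted p = 0.0242, two-sided exact binomial test with Benjamini-Hochberg adjustment over all genes). Its single annotated transcript has a GC content of 58.7%. The ratio fell with GC content over the genes with at least 100 reads, and in the GC bin of Sesn2 its median was -0.061. With that trend removed, the log2 ratio of Sesn2 was -0.028 and the adjusted p of the exact binomial test was 0.801. With a coefficient of variation of 0.1 assumed between libraries, edgeR's exact test gave an adjusted p of 1. Markers of feeder fibroblasts were also lower in B: 4 of 8 tested (Col3a1, Col1a2, Dcn and Postn) were called. Col3a1 had 14 reads in B and 47 in A, Col1a2 16 and 36, Dcn 24 and 51, and Postn 8 and 22. The median log2 ratio of the 8 was -1.03. The 10 markers summed to 156 CPM in B and 166 in A, most of it from Fbln1 (100.3 CPM in B, 104 in A) and Thy1 (43.7 and 42.9), which were not called, and Twist2 had 0 reads in both. The 4 called feeder markers had under 100 reads and were not in the test with the GC trend removed. Of the 8 ES cell markers, 3 had a ratio above 0 and 5 below. Called were 2, both higher in B by the exact binomial test: Dppa5a (log2 ratio 0.071, adjusted p = 6.1e-20) and Tdgf1 (0.051, adjusted p = 0.0032). With the GC trend removed, Dppa5a stayed called (adjusted exact p = 7.2e-15) and Tdgf1 did not (0.206). The part of either marker list in the Sesn2 difference was not tested. In bulk RNA, fewer cells of a type and less RNA per cell cannot be told apart.

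The other 9 genes were not called. Phlda3 had the largest log2 ratio, -0.091, with an interval of -0.21 to 0.030. That of Trp53 was -0.034 (-0.068 to -7.8e-05), and its Benjamini-Hochberg adjusted exact p was 0.401. Those of Mdm2 and Mdm4 were 0.020 (-0.039 to 0.080) and 0.024 (-0.012 to 0.059). The ratios above 0 among the targets were 0.0034 for Zmat3, 0.015 for Ccng1, 0.048 for Trp53inp1, 0.058 for Perp and 0.087 for Eda2r. The 3 genes with a ratio below 0 were those richest in GC, at 53.3% to 62.6%. The 7 with a ratio above 0 had 38.8% to 48.0%. After removal of the GC trend 4 of these 7 turned below 0, namely Mdm2 (-0.00022), Mdm4 (-0.0055), Zmat3 (-0.0088) and Ccng1 (-0.031). Zmat3 was also below 0 with scaling by total counts (-0.0039). With the trend removed the ratios of the 10 genes lay between -0.031 (Ccng1) and 0.046 (Perp), and 0 of the 10 were called by the exact binomial test, against 1.1% of 13492 genes. Without it, 4 of the 10 had an unadjusted p under 0.05, and 12.4% of all genes tested did. Those shares differ in depth: tested genes reach down to 10 reads, while Perp, lowest of the 10 in reads, had 953 in B and 636 in A. Trp53 (p = 0.0492) and Eda2r (p = 0.0498), by the unadjusted exact binomial test, lay just under 0.05.

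**Figure D3:**
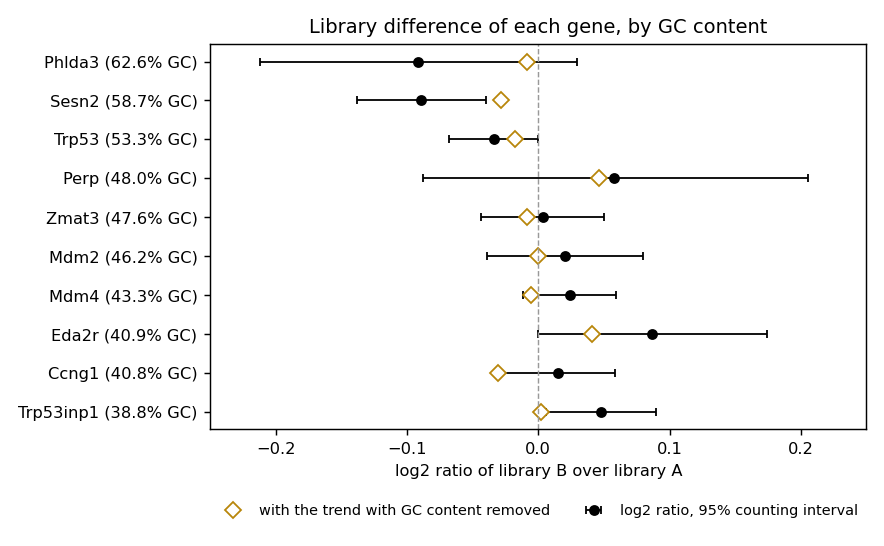
Log2 ratio of library B over library A of each gene (filled circles, 95% counting interval), ordered by GC content with the richest at the top, and the ratio with the GC trend removed (open diamonds). The circles of Phlda3, Sesn2 and Trp53 lie below 0 and the other 7 above it; 4 of those 7 have diamonds below 0, and all diamonds lie between -0.031 and 0.046.

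Among the 53 further genes of the pathway, 50 had at least 10 reads. Of these 1 was called, Usp10, at 206 CPM in B and 218 in A (log2 ratio -0.081, adjusted p = 0.0347, exact binomial test). With the GC trend removed its adjusted exact p was 0.222. Their median log2 ratio was -0.0012. Cdkn1a had 73.1 CPM in both libraries, a log2 ratio between -0.080 and 0.080.

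**Figure D4:**
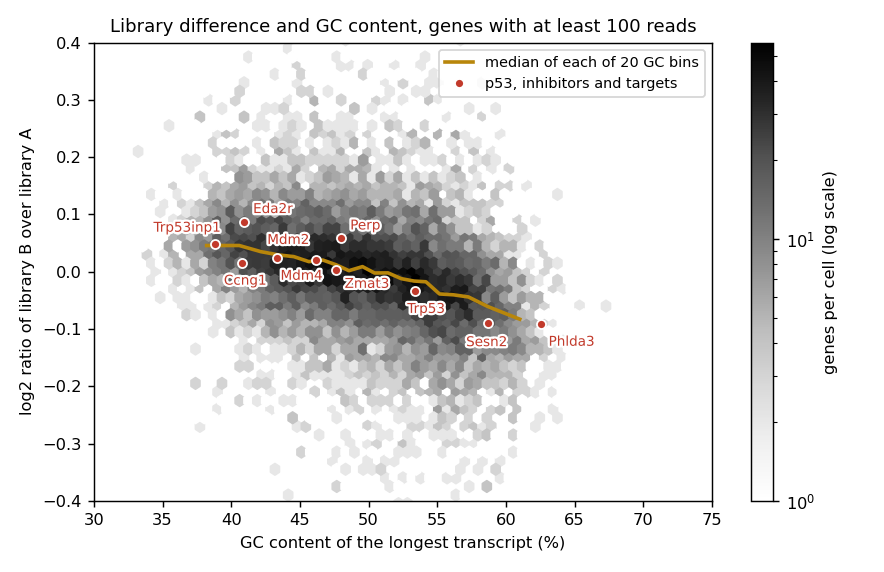
Log2 ratio of library B over library A against the GC content of the longest transcript, for genes with at least 100 reads (grey cells shaded by number of genes; ratios beyond the axis are not drawn), with the median of 20 GC bins (line) and the 10 genes (red). The median went down from 0.046 in the bin lowest in GC to -0.083 in the highest, and the red points of Sesn2 and Phlda3 lie at its low end, with Eda2r and Perp above the line.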

How the data were processed

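Poly-A RNA was measured in 2 libraries of 1 group, Drosha knockout ES cells. Each deposited file gives 1 library as raw counts of reads for every Ensembl gene, per the file headers. Per the labels' protocols the libraries were reverse-stranded TruSeq RNA libraries. STAR 2.4.2a, featureCounts 1.4.5-p1 and mm10 are named without roles, per the submitters' processing notes. How multi-mapped reads were treated, which strand setting was used and which annotation release are points not given in the sources used here.

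Symbols, positions, exon lengths and GC content came from GENCODE M21 (GRCm38, the build of mm10), which matched 97.5% of gene IDs; the others held 0.163% of counts. Counts were scaled by TMM over genes with at least 10 reads (edgeR 4.0.16, R 4.3.3) and given as CPM. TPM used merged exon lengths and matched genes. Ratios of B over A, after adding 0.5 reads, went through an exact binomial test (two-sided) over genes with at least 10 reads. A gene was called at a Benjamini-Hochberg adjusted p under 0.05. This test was used since edgeR's quasi-likelihood test has no residual degrees of freedom here. The libraries, though close (Pearson correlation of log2 CPM of 0.998 across 13949 genes, which are not replicates), differed by more than counting error, with a coefficient of variation of 2.25% beyond it.

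The genes, lists and tests were chosen with earlier results of these data known. Named from the lists were the 3 genes with the highest and the 2 with the lowest mean TPM, with any called gene. Also named were both p53 relatives, pseudogenes of the 10 genes, genes within their spans, marker genes and the 3 genes nearest to Trp53 in level. Scaling was also done by total counts and by DESeq2 1.42.0 size factors. Other alternatives were a filter of 1 or 50 reads, a coefficient of variation of 0.1 assumed in edgeR's exact test, removal of the GC trend (20 bins, genes with at least 100 reads), thresholds of 0.5 and 5 CPM, longest transcripts as lengths, and each library alone. TMM over all genes was added after seeing the data. The binomial test was tested on simulated data with counting error only. Since the simulation held no GC trend and no further variation, it does not show how many false calls these libraries give. Python 3.11.15 with scipy 1.17.1 and matplotlib 3.10.9 was used.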

Additional observations from a re-analysis of the deposited data

How the results depend on the processing

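All 10 genes stayed at 1 CPM or more in both libraries at thresholds of 0.5 and 5 CPM and in each library alone. The count of called genes among them, 1 (Sesn2), was the same under total counts, DESeq2 size factors, filters of 1 and 50 reads and TMM over all genes, where the adjusted p of Sesn2 lay between 0.0107 and 0.0432 (exact binomial test). It was 0 with the GC trend removed and 0 where edgeR's exact test assumed a coefficient of variation of 0.1. Over all genes, 417 were called, against 148 with the GC trend removed and 1 under the assumed variation; the first tests 13492 genes and the second allows for more spread than the 2.25% seen here. The other 9 genes stayed uncalled under each alternative, though the ratios of Mdm2, Mdm4, Ccng1 and Zmat3 changed sign with the GC trend removed. With longest transcripts as lengths 3 of 10 genes kept their rank in TPM. No paired analysis was possible because there is 1 group. Depth limits Perp and Phlda3 most, and 2 libraries of 1 genotype give no comparison with wild-type cells.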
